A study of Mus musculus with 6 samples.

Results

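The genes described here sense viral nucleic acid, carry the signal to interferon genes, receive interferon at the cell surface, or are switched on by it. They were taken by symbol from a list of 35 genes, and all 35 had a row among the 24421 gene rows of the deposited table. The list held 6 sensors, 5 adaptors and kinases, 5 interferon regulatory factors (IRFs), 6 interferon receptor and JAK-STAT genes and 13 interferon-stimulated genes. RNA was sequenced from Neuro2a, a mouse neuroblastoma line whose genotype is given as WT, 48 h after an adenovirus carrying a short hairpin RNA was added. The control group, shCtrl, received ADV-shCtrl (n = 3), and the other group, shFam172a, received ADV-shFam172a, whose hairpin targets Fam172a (n = 3). Both groups therefore carried adenovirus, and uninfected cells were not analysed here. The labels do not state if separate infections gave the 3 libraries of each group. The p-values below thus reflect the spread among these libraries, and that spread may be technical.

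Cells find viral RNA in the cytosol with the helicases RIG-I and MDA5, which signal through the mitochondrial adaptor MAVS, and find DNA with cGAS, which signals through STING. Both routes reach the kinase TBK1 and the factor IRF3, which turn on interferon-beta. Secreted interferon binds its receptor on the same or a neighbouring cell, and the kinases JAK1 and TYK2 then activate STAT2 and its partners, among them IRF9, which bind interferon-stimulated response elements in front of antiviral genes. Adenoviral vectors deliver foreign DNA, and short hairpins are folded RNA, so the agents given to both groups are of kinds that these sensors can meet.

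Gene counts summed to between 11250312 and 12820531 per library in shCtrl and to between 21690467 and 23409319 in shFam172a, so the knockdown libraries were the deeper ones. No pair of libraries agreed within sampling noise, since the chi-square statistic per degree of freedom was 1.61 to 2.84 within a group, and shFam172a replicate 3 stood apart from its group with 2.84 and 2.71 where the next highest pair had 1.96. Levels are given as CPM, gene counts relative to library size after scaling by the trimmed mean of M-values (TMM). Fam172a stood at 18.6, 19.3 and 19.5 CPM in shCtrl and 9.22, 8.28 and 9.22 CPM in shFam172a, and fell to 0.465 of the shCtrl level (adjusted p = 2.4e-12). Of 18 sympathoadrenal and neuronal markers of the line, 17 passed the filter on low counts. Of the 17, 9 rose and 2 fell, a called share of 64.7% against 36.1% of all tested genes. Th rose from 9.28 ± 1.3 to 18.7 ± 1.05 CPM (adjusted p = 1.5e-10). Elavl4 fell from 303 ± 3.74 to 214 ± 7.35 CPM (adjusted p = 2.7e-16). The 18 summed to 3270 to 3310 CPM in shCtrl and 3330 to 3400 CPM in shFam172a, a sum that does not show such single changes. Among 14 macrophage and microglia markers, Ptprc, Cx3cr1, Itgam, C1qa, C1qc and Trem2 had 0 counts in all 6 libraries. The 14 summed to 0.779 to 1.89 CPM in shCtrl and 1.72 to 1.98 CPM in shFam172a. Of these 14 only Cd68, a lysosomal protein, passed the filter, at 0.514 ± 0.249 and 1.02 ± 0.107 CPM (adjusted p = 0.048). The 10 dendritic and lymphoid markers summed to no more than 0.797 CPM in any library, with Siglech, Cd3e and Ms4a1 at 0 throughout. The 10 fibroblast markers summed to 11.5 to 12.9 CPM and 9.89 to 12.2 CPM, with 4 tested and 0 called. The part of these marker levels in the results below was not tested. In such bulk libraries, fewer cells with a transcript and less of it per cell cannot be told apart.

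Interferon-stimulated response elements carry a core of GAAA, 2 bases of any kind, and GAAA again. The stretches below show this core in front of 6 interferon-stimulated genes: 3 that were called different between the groups (Isg15, Bst2 and Cxcl10) and 3 that were not called or lay under the filter (Ifit1, Ifit3 and Rsad2). Each is 60 bases long, lies wholly before the gene start, and is written 5′ to 3′ in the direction of its gene, from RefSeq on GRCm38.p6. Capitals mark the core or its reverse complement (TTTC, any 2 bases, TTTC), and overlapping cores run together.
Isg15 (chr4:156200850-156200909, minus strand): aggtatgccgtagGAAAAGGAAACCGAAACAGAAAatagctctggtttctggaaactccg
Bst2 (chr8:71537562-71537621, minus strand): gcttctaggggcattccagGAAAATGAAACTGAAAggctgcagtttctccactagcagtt
Cxcl10 (chr5:92349068-92349127, minus strand): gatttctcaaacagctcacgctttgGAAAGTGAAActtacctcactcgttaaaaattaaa
Ifit1 (chr19:34640779-34640838, plus strand): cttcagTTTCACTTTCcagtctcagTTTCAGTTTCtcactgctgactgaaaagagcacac
Ifit3 (chr19:34583382-34583441, plus strand): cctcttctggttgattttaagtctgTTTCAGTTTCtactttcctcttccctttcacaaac
Rsad2 (chr12:26456538-26456597, minus strand): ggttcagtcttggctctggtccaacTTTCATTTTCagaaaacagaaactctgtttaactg

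Isg15 had 3 overlapping cores, starting 78, 72 and 66 bases before the gene start, and Bst2 had 2, starting 130 and 124 bases before it. Promoter windows of 300 bases, 250 before and 50 after a start, were matched for 30 of the 35 genes. On either strand the core occurred in at least 1 window of 11 of the 30, among them 6 of 10 interferon-stimulated genes, 3 of 5 sensors and 0 of 4 adaptors and kinases. Over the 27025 genes with a window outside chromosome 18, 3.99% held it. The genes were listed for their known roles, 13 of the 35 as interferon-stimulated genes, so this share describes the list. Stat2 and Irf2 also held a core before the start, and Ifih1, Ddx58 and Eif2ak2 held one after it. No core lay in the windows of Isg20, Ifit2, Oasl2, Adar or Tyk2, and Mx1, Mx2 and Usp18 had no window to search. A match of letters is not a bound site.

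Of the 35 genes, 32 had at least 1 count in every library, and 28 had at least 10. Ifih1, Tlr9 and Ifit3 were the 3 with 0 counts in some library. With Ikbke, they were also the 4 genes that did not pass the filter, so 31 were tested. Thinning the shFam172a libraries to the mean shCtrl depth left the first number at 32.

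Per kilobase of merged exon (CPM per kb, mean of all 6 libraries), the genes spanned from 31.2 for Jak1 to 0.0121 for Tlr9. Jak1, Tbk1 at 27.5 and Bst2 at 17.2 came first, and the ranges of neighbours in that order did not overlap down to Adar at 13.2. Jak1 stood at or above 86.8% of all tested genes on this scale, and Mavs, at 7.25, at or above 50.4%. In the upper and middle part lay, among others, Ifnar1 at 11.4, Stat2 at 11.4, Eif2ak2 at 10.7, Ifngr1 at 8.10 and Irf3 at 6.73. From Mx2 at 2.19 down to Oasl2 at 0.104 stood most of the interferon-stimulated genes, together with Ddx58, Dhx58, Tlr3, Irf9 and Irf7. Below Oasl2 came the 4 genes that were not tested: Ikbke at 0.05, Ifit3 at 0.0418, Ifih1 at 0.0223 and Tlr9. Of the 34 pairs of neighbours, 26 had overlapping ranges over the libraries, so the exact order within the low part is not resolved.

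**Figure D1:**
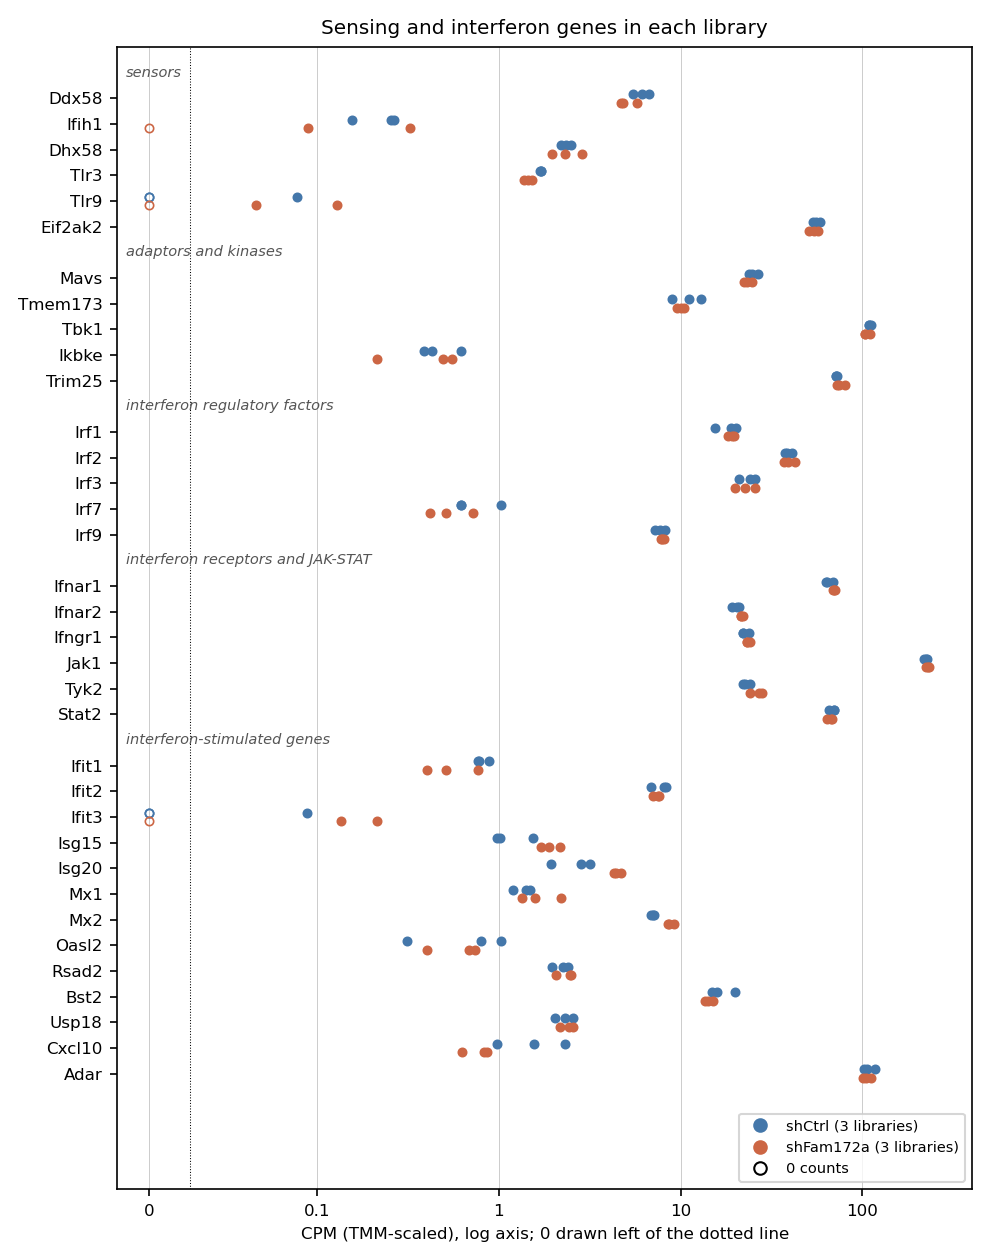
Level of each of the 35 genes in each library, as TMM-scaled CPM on a log axis, grouped by role; blue points are the 3 shCtrl libraries, orange points the 3 shFam172a libraries, and open points left of the dotted line are libraries with 0 counts. Jak1, Tbk1 and Adar lie above 100 CPM in every library, while Tlr9, Ifih1 and Ifit3 have libraries at 0.

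The comparison of shFam172a with shCtrl asks whether this antiviral set differs when Fam172a is lowered, with both groups infected. Each group received its own hairpin and its own virus. Effects of lower Fam172a, of the hairpin itself and of the virus given therefore cannot be told apart in the differences below. Most of the set did not pass the test. With edgeR's quasi-likelihood test and Benjamini-Hochberg adjustment over all 12820 tested genes, 4 of the 31 tested genes rose (Isg20, Isg15, Mx2 and Tyk2), 2 fell (Cxcl10 and Bst2) and 25 did not pass. Over all tested genes 36.1% were called at the same threshold of 0.05, with 17.5% higher and 18.6% lower, and the 6 of 31 here come to 19.4%. The median log2 fold change was 0.02 over the 31 and -0.00 over all tested genes, and the median absolute value was 0.09 and 0.13. The sign was positive in 16 and negative in 15. In CPM the groups did not overlap for 7 of the 31, against 46.0% of all tested genes. The set summed to between 937 and 957 CPM in the shCtrl libraries and between 943 and 960 CPM in the shFam172a libraries.

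The calls lay at low and middle levels. Of the 15 tested genes with a mean under 10 CPM, 4 were called (26.7%), where 14.1% of all such genes were. Between 10 and 50 CPM it was 2 of 9 (22.2%), against 33.8% of all genes in that band. At 50 CPM and above, Jak1, Tbk1, Adar, Trim25, Stat2, Ifnar1 and Eif2ak2 gave 0 calls in 7, against 53.3% of all genes in that band. Their log2 fold changes lay between -0.06 and 0.09 with SEs of 0.031 to 0.052, so these 7 were measured closely. Under 10 CPM the SEs were 0.12 to 0.43, so the differences seen in the upper band are smaller than 1 SE there.

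**Figure D2:**
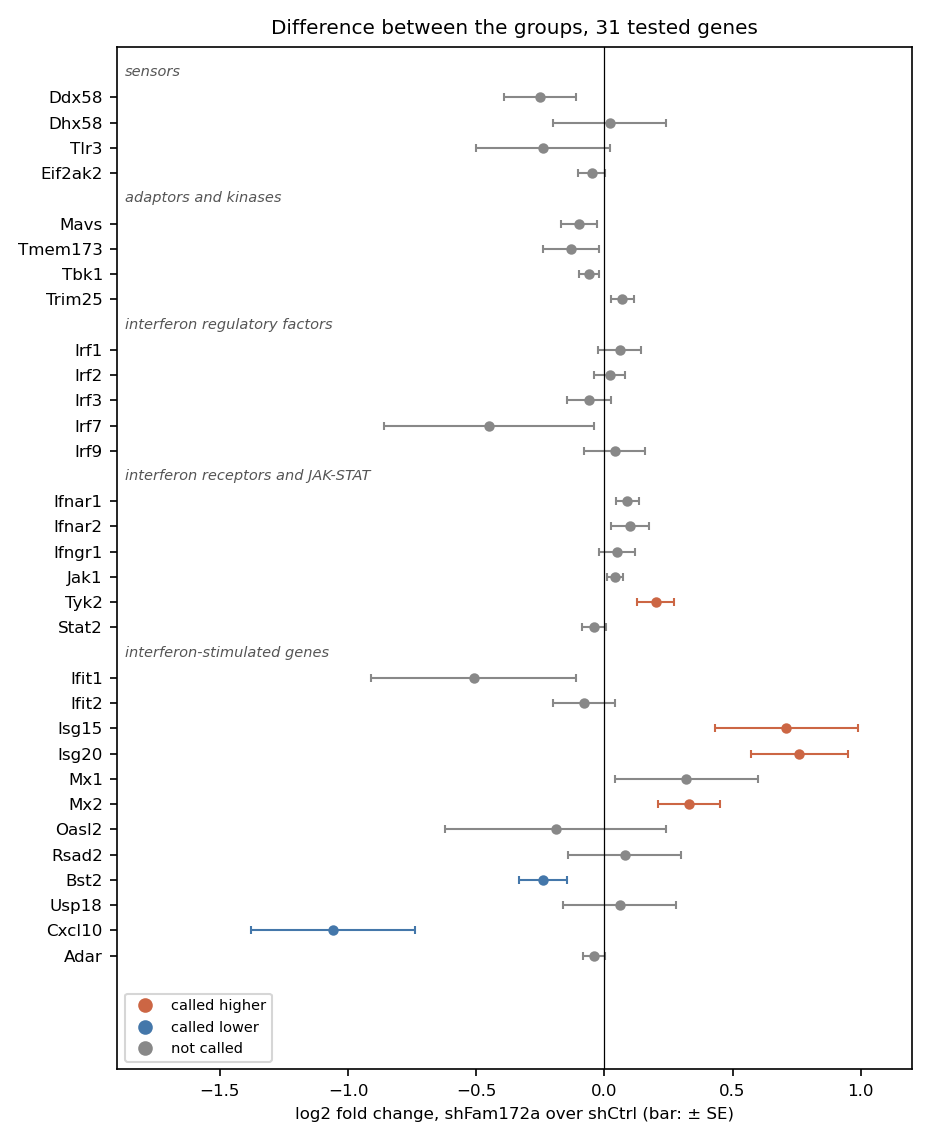
Log2 fold change of shFam172a over shCtrl for the 31 tested genes by role, with bars of 1 SE; orange is called higher, blue called lower and grey not called. The called genes are Tyk2 among the receptor and JAK-STAT genes and 5 interferon-stimulated genes, and the widest bars belong to the genes of lowest level, such as Irf7, Ifit1 and Oasl2.

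Sensors of RNA and DNA were expressed unevenly. The 4 that were tested all sense RNA, and none of them was called. Tlr9, the DNA sensor of the list, was not tested. Eif2ak2, which encodes PKR, the kinase that halts translation on binding viral RNA, had the highest level per kilobase, and stood at 53.2, 55.5 and 58.6 CPM in shCtrl and 50.6, 54.4 and 56.8 CPM in shFam172a. The groups overlapped, and the difference on the log2 scale was -0.05 ± 0.052 (SE; adjusted p = 0.51). Ddx58, the gene of RIG-I, stood at 6.69, 6.15 and 5.49 CPM in shCtrl and 4.73, 5.79 and 4.85 CPM in shFam172a. Its highest shFam172a library lay within the shCtrl range, and the difference of -0.25 ± 0.14 had adjusted p = 0.18. Ifih1, the gene of MDA5, had only 3, 2 and 3 counts in shCtrl and 7, 0 and 2 in the deeper shFam172a libraries. Dhx58, which encodes LGP2, a helicase of the same family without a signalling domain, was at 2.35 ± 0.136 and 2.39 ± 0.456 CPM. It shares exon sequence with an antisense gene, and no source used here says if the counting used strand. Eif2ak2, Tlr3 and Usp18, among others, also share exon bases with genes on the opposite strand, and Ifnar2 with a gene on its own strand.

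The endosomal sensors were low. Tlr3, which binds viral RNA in endosomes, had 20, 22 and 19 counts in shCtrl and 33, 32 and 32 in shFam172a, or 1.70 ± 0.0179 and 1.45 ± 0.0787 CPM. All 3 shFam172a libraries lay below all 3 shCtrl libraries, but the log2 fold change of -0.24 ± 0.26 did not pass (adjusted p = 0.51). Tlr9, the endosomal sensor of unmethylated DNA, had at most 3 counts in any library and 0 in 3 of them.

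The adaptors and kinases gave no call. Tbk1, the kinase on which RNA and DNA sensing meet, was at 108, 109 and 111 CPM in shCtrl and 103, 103 and 110 CPM in shFam172a. Replicates 1 and 2 of shFam172a were below the shCtrl range and replicate 3 was inside it, and the log2 fold change was -0.06 ± 0.039 (adjusted p = 0.27). Mavs, the mitochondrial adaptor of the RIG-I family, stood at 25.1 ± 1.37 and 23.4 ± 1.14 CPM (SD, n = 3). Tmem173, the gene of STING, was at 11.1, 12.9 and 8.95 CPM in shCtrl and 10.5, 9.61 and 10.1 CPM in shFam172a, inside the shCtrl range. Trim25, a ubiquitin ligase that acts on RIG-I, was at 71.9 ± 0.675 and 75.2 ± 3.97 CPM, with a log2 fold change of 0.07 ± 0.045. Ikbke, a close relative of Tbk1 that is prominent in immune cells, had 5 to 12 counts per library and was not tested.

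The 5 IRFs did not separate the groups. Irf3, the factor that TBK1 activates, had the highest level of them per kilobase, and stood at 20.9, 25.8 and 24.2 CPM in shCtrl and 20, 25.6 and 22.5 CPM in shFam172a. Irf2, a repressor of interferon genes in many settings, was at 41.0, 38.4 and 37.6 CPM in shCtrl and 38.9, 42.6 and 37.0 CPM in shFam172a. The ranges of both overlapped, with log2 fold changes of -0.06 ± 0.084 for Irf3 and 0.02 ± 0.060 for Irf2. Irf1 was at 18.2 ± 2.43 and 19.0 ± 0.700 CPM, and Irf9, a partner of STAT2, at 7.70 ± 0.489 and 7.92 ± 0.143 CPM. Irf7, which amplifies interferon production and is itself induced by interferon, was low, with 12, 8 and 7 counts in shCtrl and 9, 12 and 16 in shFam172a. Its log2 fold change of -0.45 ± 0.41 had adjusted p = 0.42.

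Receptor and signalling genes moved little. Per kilobase they ran from Tyk2, at or above 32.6% of all tested genes, to Jak1, at or above 86.8%. Jak1, the kinase shared by the interferon receptors, stood at 219, 225 and 223 CPM in shCtrl and 232, 223 and 230 CPM in shFam172a, with a log2 fold change of 0.04 ± 0.031 (adjusted p = 0.35). Ifnar1 and Ifnar2, the chains of the type I interferon receptor, were at 65.3 ± 3.11 and 20.2 ± 0.905 CPM in shCtrl and at 69.8 ± 0.804 and 21.6 ± 0.218 CPM in shFam172a. For both genes every shFam172a library was above every shCtrl library, yet neither passed, at 0.09 ± 0.045 (adjusted p = 0.10) and 0.10 ± 0.073 (adjusted p = 0.30). Without shCtrl replicate 2, Ifnar1 was at 0.14 with adjusted p = 0.041. Ifngr1, a chain of the interferon-gamma receptor, was at 22.6 ± 0.906 and 23.5 ± 0.573 CPM, and Stat2 at 68.4 ± 2.41 and 66.5 ± 2.38 CPM.

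Tyk2, the kinase bound to Ifnar1, was the one gene of this role that was called. It stood at 24.2, 22.7 and 22.1 CPM in shCtrl and 24.0, 28.1 and 27.0 CPM in shFam172a. Replicate 1 of shFam172a lay inside the shCtrl range and replicates 2 and 3 lay above it. The log2 fold change was 0.20 ± 0.073, a 1.15-fold difference (adjusted p = 0.030). The call was lost without shCtrl replicate 2 (adjusted p = 0.097), shCtrl replicate 3 (adjusted p = 0.11), shFam172a replicate 2 (adjusted p = 0.15) or shFam172a replicate 3 (adjusted p = 0.066), at equal depth (adjusted p = 0.057) and with DESeq2 (adjusted p = 0.11). Tyk2 (GRCm38, chr9:21104068-21131243, minus strand, 22 merged exons) shares 554 bases of exon with a gene on the opposite strand.

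Among interferon-stimulated genes, 3 rose, 2 fell and 7 of the 12 tested did not pass, a called share of 41.7% with both directions present. Of all tested genes 36.1% were called, and 14.1% of those under 10 CPM, where most of these genes lie. The 13 genes summed to 149 to 158 CPM in shCtrl and 147 to 157 CPM in shFam172a. The median log2 fold change was 0.01 and the median absolute value 0.28.

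Isg20, an exonuclease that degrades single-stranded RNA, rose. It had 37, 25 and 32 counts in shCtrl and 101, 100 and 98 in shFam172a, which came to 3.17, 1.95 and 2.84 CPM and 4.68, 4.29 and 4.41 CPM. The shFam172a libraries were close together and all above the shCtrl libraries, of which replicate 2 was the lowest. The log2 fold change was 0.76 ± 0.19, or 1.69-fold (adjusted p = 0.0014). It was called under all 13 alternatives, with log2 fold changes from 0.57 to 0.91 and adjusted p from 3.7e-04 to 0.034. Isg20 (GRCm38, chr7:78913424-78920396, plus strand, 5 merged exons) shares no exon sequence with another annotated gene.

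Isg15, a ubiquitin-like protein that is joined to other proteins during antiviral responses, was low but higher in shFam172a. Its counts were 18, 13 and 11 in shCtrl and 37, 44 and 48 in shFam172a, or 1.54, 1.01 and 0.975 CPM and 1.71, 1.89 and 2.16 CPM. The groups did not overlap, although replicate 1 of shCtrl lay much nearer to the shFam172a libraries than replicates 2 and 3 did. The log2 fold change was 0.71 ± 0.28, or 1.63-fold (adjusted p = 0.042). The call was lost without shCtrl replicate 2 (0.60, adjusted p = 0.17), shCtrl replicate 3 (adjusted p = 0.15), shFam172a replicate 2 (adjusted p = 0.063) or shFam172a replicate 3 (0.62, adjusted p = 0.11), at equal depth (adjusted p = 0.061), without the filter (adjusted p = 0.051) and with DESeq2 (adjusted p = 0.15). Isg15 lies at chr4:156199424-156200818 of GRCm38 on the minus strand, in 2 merged exons that overlap no other gene.

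Mx2, a dynamin-like antiviral GTPase, stood at 7.12, 6.85 and 7.09 CPM in shCtrl and 9.18, 8.66 and 8.54 CPM in shFam172a, from 80 to 88 and 190 to 202 counts. The libraries of each group were tight and the groups apart. The log2 fold change was 0.33 ± 0.12 (adjusted p = 0.028). The adjusted p was above the threshold without any 1 of the 3 shCtrl libraries (0.058, 0.094 and 0.064 for replicates 1, 2 and 3), without shFam172a replicate 1 (0.080), at equal depth (0.085) and with DESeq2 (0.12), while the log2 fold change stayed between 0.30 and 0.35. Its relative Mx1 was lower per kilobase, and stood at 1.2, 1.48 and 1.42 CPM in shCtrl and 1.34, 1.59 and 2.20 CPM in shFam172a. Those groups overlapped, and 0.32 ± 0.28 did not pass (adjusted p = 0.39).

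Cxcl10, a chemokine that draws activated T cells and is induced by interferons, fell by the most. Its counts were 27, 20 and 11 in shCtrl and 18, 20 and 14 in shFam172a, or 2.31, 1.56 and 0.975 CPM and 0.834, 0.858 and 0.629 CPM. The shCtrl libraries spread over more than the distance between the group means, and the lowest of them lay just above the highest shFam172a library. The log2 fold change was -1.06 ± 0.32, to 0.480 of the shCtrl level (adjusted p = 0.0091). Without shCtrl replicate 1 it was -0.72 with adjusted p = 0.16. The call held under the 11 other alternatives in which the gene was tested, and a filter of 1 CPM in 3 libraries removed it. Cxcl10 (GRCm38, chr5:92346638-92348889, minus strand, 1 merged exon) shares 133 bases of exon with Art3 on the opposite strand. Art3 also fell, from 1.84 ± 0.233 to 1.03 ± 0.355 CPM (log2 fold change -0.84 ± 0.29, adjusted p = 0.021), and how far reads of the pair were told apart was not tested.

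Bst2, or tetherin, which holds budding virus particles on the cell surface, had the highest level of the interferon-stimulated genes per kilobase. It stood at 15.8, 19.8 and 14.9 CPM in shCtrl and 15.1, 14.2 and 13.6 CPM in shFam172a. The groups overlapped, and replicate 2 of shCtrl was well above the rest. The log2 fold change was -0.24 ± 0.094 (adjusted p = 0.038). Without shCtrl replicate 2 it was -0.10 with adjusted p = 0.50, and the call was also lost without shFam172a replicate 2 (adjusted p = 0.072) or replicate 3 (adjusted p = 0.10), at equal depth (adjusted p = 0.053) and with DESeq2 (adjusted p = 0.14). Bst2 has 5 merged exons at chr8:71534255-71537456 of GRCm38, on the minus strand, and overlaps no other gene.

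**Figure D3:**
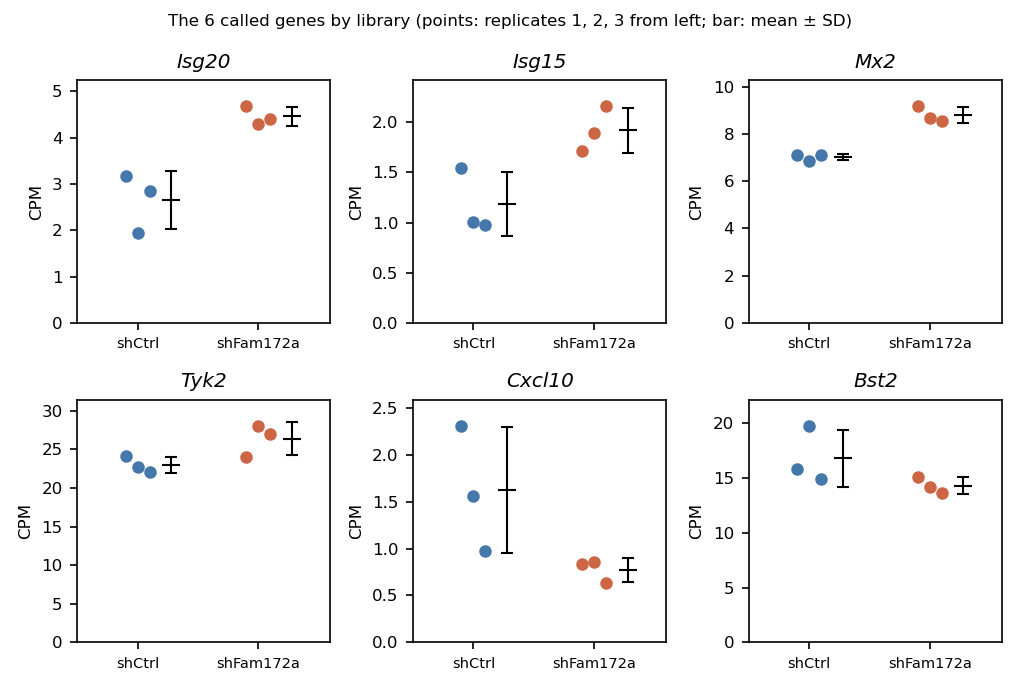
CPM of the 6 called genes in each library, on linear axes from 0; points are replicates 1, 2 and 3 of each group from left to right and the bar is the mean ± SD of 3 libraries. Isg20, Isg15, Mx2 and Cxcl10 have groups that do not overlap, while Tyk2 and Bst2 each have a shFam172a library within the shCtrl range.

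The other interferon-stimulated genes were not called. Adar, which edits adenosine to inosine in folded RNA, was at 106, 102 and 117 CPM in shCtrl and 101, 111 and 105 CPM in shFam172a (-0.04 ± 0.043, adjusted p = 0.54). Its exons share 1365 bases with Chrnb2 on the opposite strand. Chrnb2 was called higher, at 37.6 ± 3.93 and 41.8 ± 1.63 CPM (0.15 ± 0.061, adjusted p = 0.044), though its groups overlapped. Ifit2, of the family that binds RNA lacking the host cap, was at 7.80 ± 0.774 and 7.39 ± 0.311 CPM. Its relative Ifit1 had 9, 10 and 10 counts in shCtrl and 11, 18 and 9 in shFam172a (-0.51 ± 0.40, adjusted p = 0.33). Ifit3 had 0, 0 and 1 counts and 0, 5 and 3 counts, and 31.7% of its 100-base words also occur in transcripts of Ifit3b, so its level is uncertain. Rsad2, the gene of viperin, was at 2.21 ± 0.215 and 2.34 ± 0.234 CPM and Usp18, which removes ISG15 from proteins and dampens the receptor, at 2.30 ± 0.273 and 2.39 ± 0.197 CPM. Oasl2, a relative of the oligoadenylate synthetases, had 4 to 16 counts per library. The groups of all 6 named genes with a test overlapped.

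Only Isg20 and Cxcl10 stayed called with DESeq2 and when the shFam172a libraries were thinned to shCtrl depth. With DESeq2 the adjusted p was 0.012 for Isg20 and 0.049 for Cxcl10, just under the threshold. Without shFam172a replicate 3, the library that stood apart, the called genes were Cxcl10, Isg20 and Mx2. Isg20 alone was called under all 13 alternatives.

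**Figure D4:**
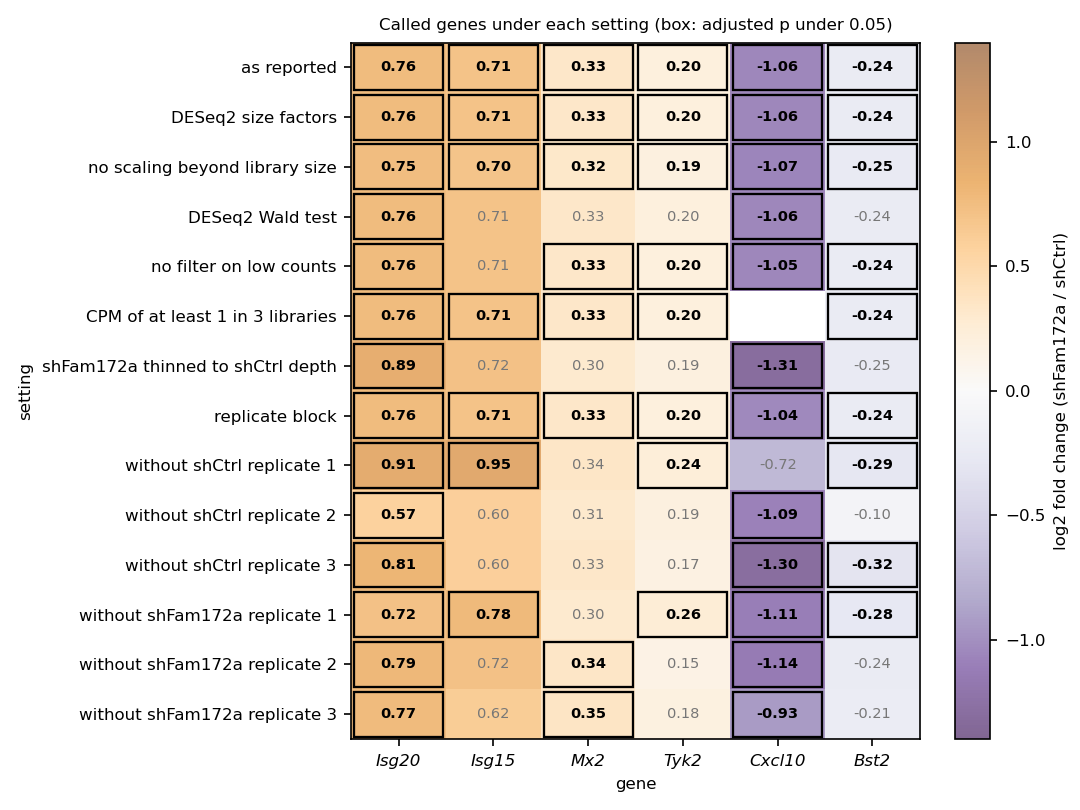
Log2 fold change of the 6 called genes as reported and under 13 alternative settings; the colour and the number give the fold change, a box marks an adjusted p under 0.05, and the blank cell is a setting in which Cxcl10 was filtered out. No sign changes for these genes, Isg20 is boxed in every row, and Isg15, Mx2, Tyk2 and Bst2 lose the box in 5 to 7 settings.

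Interferon genes themselves were close to absent from the counts. Of 18 interferon genes, 17 had 0 counts in all 6 libraries, among them Ifnb1 and Ifng. Over the summed gene counts, 0 counts allow up to 0.0291 CPM by counting error. Ifne had 0.0779 CPM in shCtrl replicate 2 and 0 in the other libraries. The Ifna genes are near copies of one another, and reads with several alignments stand in a row of their own and not under a gene, so their zeros say less than that of Ifnb1.

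Wider groups of pathway genes outside the list, with 39, 19 and 73 genes, showed small differences in both directions. Some of these genes, among them Rnaseh2a, Irf2bp2, Parp9, Parp10, Ifitm2, Tapbp and Ikbkg, share exon bases with other annotated genes. How far reads of such genes were told apart was not tested. Of 32 tested genes of sensing and adaptors, 4 were higher and 8 lower, and the remaining 20 missed the threshold (median -0.03 on the log2 scale). Ticam1, the adaptor of TLR3, rose from 8.39 ± 1.04 to 11.2 ± 0.900 CPM (0.41 ± 0.11, adjusted p = 0.0038). Trim56, a ubiquitin ligase of the STING route, was at 0.38 ± 0.088 and Nfkb1 at 0.29 ± 0.072. Rnaseh2a, the catalytic subunit of ribonuclease H2, fell from 47.4 ± 4.31 to 38.6 ± 2.20 CPM (-0.30 ± 0.060, adjusted p = 1.1e-04), Tank, a scaffold of TBK1, was at -0.29 ± 0.067, and Samhd1, a dNTP hydrolase that limits viral DNA synthesis, at -0.25 ± 0.047. These 6 were called under all 13 alternatives. Mb21d1, the gene of cGAS, was at 4.37 ± 0.384 and 3.97 ± 0.556 CPM (-0.14 ± 0.17, adjusted p = 0.56).

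Of 15 tested genes of interferon signalling beyond the list, 2 rose and 2 fell. Ptpn11, the phosphatase SHP2, and Irf2bp2, a corepressor that binds IRF2, were each at 0.20, with SEs of 0.033 and 0.037. Ifngr2, the second chain of the interferon-gamma receptor, fell from 66.4 ± 0.445 to 56.9 ± 4.49 CPM (-0.22 ± 0.051, adjusted p = 6.4e-04). Socs3, a feedback inhibitor of JAK kinases, was at -0.41 ± 0.14 (adjusted p = 0.022). The Socs3 call was lost without shCtrl replicate 1 (adjusted p = 0.12), shCtrl replicate 2 (adjusted p = 0.069) or shFam172a replicate 2 (adjusted p = 0.051), and with DESeq2 (adjusted p = 0.097).

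Of 73 further interferon-stimulated genes, 44 were tested, of which 6 were higher, 3 lower and 35 uncalled (median -0.04 on the log2 scale). B2m, the light chain of class I histocompatibility molecules, fell from 112 ± 3.27 to 87.0 ± 3.69 CPM (-0.36 ± 0.040, adjusted p = 2.8e-09), called under all 13 alternatives. Tdrd7, a Tudor domain protein, rose from 29.3 ± 0.968 to 35.2 ± 0.349 CPM (0.26 ± 0.060, adjusted p = 6.0e-04). Parp10, an ADP-ribosyltransferase, was at 0.25 ± 0.065 and its relative Parp9 at 0.28 ± 0.10 (adjusted p = 0.030). Irgm1, an immunity-related GTPase, was at -0.37 ± 0.14 and Ifitm2, which hinders virus entry, at -0.16 ± 0.058. Leaving out single libraries ended the calls of Parp9 (shCtrl replicates 1 and 2 and shFam172a replicates 1 and 3, adjusted p from 0.060 to 0.11), Irgm1 (shCtrl replicates 1 and 2 and shFam172a replicate 3, from 0.090 to 0.20) and Ifitm2 (shCtrl replicates 2 and 3 and shFam172a replicate 3, from 0.13 to 0.23). With DESeq2 the adjusted p was 0.12 for Parp9, 0.13 for Irgm1 and 0.090 for Ifitm2, and at equal depth it was 0.067 for Parp9. The share called was 37.5%, 26.7% and 20.5% in these 3 groups in turn, where it was 36.1% of all tested genes.

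**Figure D5:**
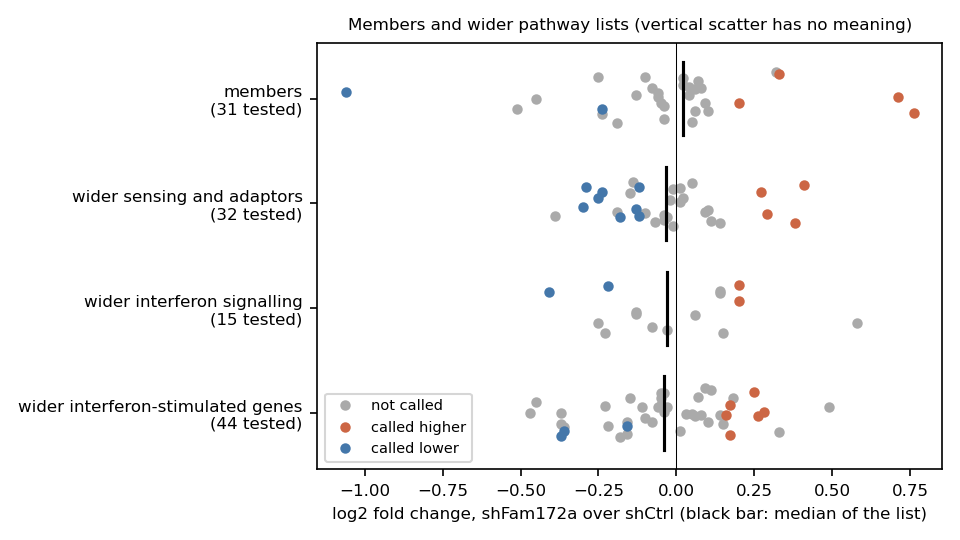
Log2 fold change of shFam172a over shCtrl for the tested genes of the list and of the 3 wider groups with a tested gene, each point a gene; orange is called higher, blue called lower, grey not called, and the black bar is the median of the group. The medians lie between -0.04 and 0.02, and called genes stand on both sides of 0 in every group.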

How the data were processed

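Raw read counts per gene symbol were used as the authors deposited them, in 1 table of 6 libraries. Each of the 6 tables of single samples repeated its column exactly. Per the submitters' processing notes, HISAT2 2.0.5, HTSeq and mm10 were used. Which annotation and strand option HTSeq was given is not stated in those sources. The 5 rows that name no gene were left out. They held 33.5% to 34.5% of each library's total in shCtrl and 35% to 37.6% in shFam172a.

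Genes were filtered with filterByExpr by group (12820 of 18128 with any count kept), TMM-scaled and tested in R 4.3.3 with edgeR 4.0.16 (robust glmQLFit, glmQLFTest, group as the term). Adjusted p-values are Benjamini-Hochberg over all tested genes, two-sided, threshold 0.05. SE is the log2 fold change over the square root of F. On counts simulated for this comparison the test was checked before use. Alternatives were other scaling, DESeq2 1.42.0, other filters, equal depth by 1 seeded thinning, a replicate block and each library left out. Positions, exon lengths and overlaps came from GENCODE M21 (GRCm38, the build mm10) and promoters from RefSeq.

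The members, the lists and the rules were chosen with earlier results of these data known. Named genes are all members, Fam172a, Mb21d1 and Ifnb1, apart from a result that is not reported here. From each wider group come the 3 called genes with a mean of at least 2 CPM and the largest log2 fold change in each direction. Th, Elavl4, Cd68, Ifng, Ifne, Art3, Chrnb2, Ifit3b and the marker genes at 0 were named after their values were seen.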

Additional observations from a re-analysis of the deposited data

How the results depend on the processing

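Counts of called genes over the whole table stayed within 1.5 times of those reported under all 13 alternatives, from 1637 to 2285 higher and from 1770 to 2547 lower. The counts for the 35 genes, 4 higher and 2 lower, did not. With DESeq2 they were 1 and 1, and 7 wider pathway genes were lower in place of 13; with the shFam172a libraries thinned to shCtrl depth they were 1 and 1. A filter of 1 CPM in 3 libraries left 1 lower, since Cxcl10 was not tested there. Leaving out single libraries gave 1 to 3 higher and 1 to 2 lower. Over 387 pairs of a tested gene of the list and an alternative, 346 kept direction and side of the threshold, 25 lost a call, 1 gained one and 15 changed sign. All sign changes were in genes not called. At equal depth Dhx58 was at -0.04 and Irf9 at -0.01. With single libraries left out Irf9 reached -0.00. Over all alternatives the values ran from -0.13 to 0.15 for Dhx58, -0.25 to 0.01 for Tmem173, -0.04 to 0.13 for Irf1, -0.04 to 0.07 for Irf2, -0.15 to 0.03 for Irf3, -0.01 to 0.09 for Irf9, -0.58 to 0.18 for Oasl2, -0.02 to 0.15 for Usp18 and -0.08 to 0.02 for Adar. The cause was not tested. Replicate numbers are shared between the groups, but same-numbered libraries did not deviate together (correlations -0.005, -0.004 and -0.010), and each shCtrl library correlated best with a library of another number. With the replicate as a block, 4 and 2 of the genes were called and 2150 and 2318 of all genes. Depth limits the low genes most: 3 counts are 0.234 to 0.267 CPM in shCtrl libraries and 0.128 to 0.138 CPM in shFam172a libraries.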

Other observations

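The genes named here were picked from the wider lists after their values were seen. Apart from B2m, their calls were not examined under the 13 alternatives. Beside B2m, the lists hold other genes of class I antigen presentation. The heavy chain gene H2-K1 was at 127 ± 5.54 and 134 ± 0.832 CPM in shCtrl and shFam172a (log2 fold change 0.07 ± 0.036, adjusted p = 0.11), and H2-D1 at 36.4 ± 3.26 and 37.8 ± 3.08 CPM (adjusted p = 0.54). H2-T23 had 1, 3 and 2 counts in shCtrl and 16, 11 and 8 in shFam172a, or 0.166 ± 0.0747 and 0.524 ± 0.196 CPM. Its groups did not overlap, but it lay under the filter and was not tested. Tapbp, the tapasin that loads peptide onto class I molecules, rose from 52.7 ± 0.928 to 58.8 ± 1.57 CPM (0.16 ± 0.048, adjusted p = 0.0080). The peptide transporter genes Tap1 and Tap2 were at 0.10 ± 0.12 and 0.05 ± 0.061, neither called. The immunoproteasome subunit Psmb8 was at 0.11 ± 0.087 (adjusted p = 0.32), Psmb9 at -0.16 ± 0.24 (adjusted p = 0.65) and Psmb10 at -0.23 ± 0.099 (adjusted p = 0.060). The proteasome activator genes Psme1 and Psme2 were at -0.10 ± 0.049 (adjusted p = 0.096) and -0.08 ± 0.049 (adjusted p = 0.19).

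Aim2, a cytosolic DNA sensor best known from macrophages, fell from 22.0 ± 1.43 to 18.6 ± 0.792 CPM (-0.24 ± 0.076, adjusted p = 0.012), in libraries where Ptprc had 0 counts. Xrcc6, the Ku70 subunit that binds DNA ends, fell from 227 ± 6.53 to 200 ± 6.8 CPM (-0.18 ± 0.032, adjusted p = 2.7e-05). Zc3hav1, an antiviral zinc finger protein, was at 79.8 ± 1.47 and 72.7 ± 2.40 CPM (-0.13 ± 0.043, adjusted p = 0.012). In the other direction, Ikbkg of the same list rose from 51.8 ± 1.01 to 62.5 ± 0.955 CPM (0.27 ± 0.047, adjusted p = 1.5e-05).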
